A study of Homo sapiens with 4 samples.

Results

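Box C/D small nucleolar RNAs (snoRNAs, gene names beginning with SNORD) were examined in GIST-T1, a human cell line established from a stromal tumor of the gut (GIST), with and without added miR-335 mimic. The members were all probes, other than control spots, whose gene name in the scanner files begins with SNORD. They numbered 203 of the 50599 probes on the array and carried 196 of 36337 gene names. All 203 were 60 bases long and each was printed in 1 spot. The cells in both groups were nucleofected with 100 pmol of synthetic RNA. In 1 group this RNA was a miR-335 mimic, which stands in for the mature microRNA, and in the other it was Negative Control #1 of the same supplier. Total RNA was taken 48 h later, and 100 ng was amplified, labeled with a single dye and hybridized. The labels put 2 arrays in each group and name neither the arm of miR-335 nor separate cultures, so the p-values below measure the spread between these arrays, which may be technical. A second line in the description of both mimic samples names miR-34a, whereas their titles, characteristics and files name miR-335, and they are called miR-335 mimic arrays here.

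SnoRNAs of the box C/D class carry a box C motif near the 5′ end and a box D motif near the 3′ end, which are bound by NHP2L1 (also called SNU13), NOP56, NOP58 and the methyltransferase fibrillarin (FBL). Most guide ribose methylation of ribosomal RNA at the base paired with the stretch next to box D. A few, such as U3 (SNORD3) and U22 (SNORD22), are needed for cleavage of the ribosomal RNA precursor. Nearly all human members lie in introns of host genes, many of which encode ribosomal proteins or noncoding transcripts such as SNHG1 and GAS5, and they are released when the spliced intron is trimmed, whereas U3 is transcribed from genes of its own. The SNORD113 and SNORD114 copies on chromosome 14 and the SNORD115 and SNORD116 copies on chromosome 15 are imprinted clusters. Most of these have no known ribosomal target. The labeling kit primes from poly(A) tails, which mature snoRNAs lack. Whether a signal came from a mature snoRNA, a precursor or a host transcript was not tested.

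The probes on which the results turn are printed here as they stand in the scanner files, 5′ to 3′, with hg19 positions. Capitals mark the first box C match (TGATGA) and the last box D match (CTGA) after it, or the last CTGA where there was no TGATGA. These are matches of letters within the probe, and whether each is the box described above was not tested. The first pair, on the plus strand of chromosome 17, reports U3, which was called lower.
SNORD3B-1, chr17:18965252-18965311: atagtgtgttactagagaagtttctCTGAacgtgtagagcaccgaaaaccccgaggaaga
SNORD3B-1, chr17:18965382-18965441: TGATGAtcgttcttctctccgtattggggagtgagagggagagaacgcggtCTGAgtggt
The next 4 are the members that were called higher, all on the plus strand.
SNORD12C, chr20:47895501-47895560: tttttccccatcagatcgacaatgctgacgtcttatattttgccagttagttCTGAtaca
SNORD11, chr2:203157798-203157857: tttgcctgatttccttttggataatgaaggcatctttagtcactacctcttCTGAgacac
SNORD113-3, chr14:101396267-101396326: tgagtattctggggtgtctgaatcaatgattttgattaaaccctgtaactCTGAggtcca
SNORD114-3, chr14:101419700-101419759: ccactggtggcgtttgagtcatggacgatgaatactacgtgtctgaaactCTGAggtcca
A further SNORD114 copy, the other that was detected on all 4 arrays, is shown for its likeness to SNORD114-3.
SNORD114-26, chr14:101453394-101453453, plus strand: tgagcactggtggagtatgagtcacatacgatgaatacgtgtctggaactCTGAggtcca
The last pair stands for the chromosome 15 clusters, of which no probe was well above background.
SNORD115-1, chr15:25444617-25444676, plus strand: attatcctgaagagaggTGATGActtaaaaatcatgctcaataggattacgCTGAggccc
SNORD116-4, chr15:25304722-25304781, plus strand: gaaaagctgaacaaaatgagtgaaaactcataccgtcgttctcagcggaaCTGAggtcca

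The letters CTGA stood in 191 of the 203 member probes (94.1%) and in 29.4% of all 60-base probes. On the reverse complement they stood in 33 member probes (16.3%) and in 27.1% of all probes. TGATGA was present in 49 member probes (24.1%), compared with 2.89% of all probes, and in 2 (0.985%) on the reverse complement, compared with 2.3%. Most member probes therefore hold the letters of the snoRNA strand. The other 12 held no CTGA, and some probes of 1 name lie on opposite strands, as the pairs for SNORD9 and for SNORD124 do. Among the 64 members that entered the test described below, CTGA was present in 61 (95.3%), and among the other 139 in 130 (93.5%).

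The RefSeq mature sequences of miR-335 are given with the seed, bases 2 to 8, in capitals (GRCh38.p14, chromosome 7, plus strand, 130496126 to 130496148 for the 5p arm and 130496162 to 130496183 for the 3p arm).
hsa-miR-335-5p: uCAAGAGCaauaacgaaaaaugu
hsa-miR-335-3p: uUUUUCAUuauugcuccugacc
The site that pairs with the 5p seed, GCTCTTG, was present in 0 of the 203 member probes and in 0.437% of all probes. The site for the 3p seed, ATGAAAA, was present in 5 (SNORD6, SNORD19B, SNORD60, SNORD73A and SNORD116-12; 2.46%) and in 1.22% of all probes. Both were sought on the probe strand only, and a match describes the letters of the probe and no more.

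All arrays came from 1 slide and 1 scan, with the groups in neighboring positions, so that position and group cannot be told apart. On each array 40.3% to 41.9% of all probes were detected, that is, flagged as well above background. The markers of gastrointestinal stromal tumor and of interstitial cells of Cajal (KIT, ANO1, ETV1, PRKCQ, CD34, PDGFRA) were all detected on the 4 arrays, with log2 changes of -0.33 to -0.07; limma called none of them at the main setting. KIT (adjusted p = 0.0512) lay at the threshold and was called lower with spike-in scaling and scaling to detected probes, with the filter on all arrays, with normexp and, like ETV1, with the intensity trend. Of the leukocyte markers PTPRC and CD3E, the epithelial markers CDH1 and KRT20 and the endothelial markers PECAM1, VWF and KDR, none was detected on any array; EPCAM, KRT8 and KRT18 were detected on all 4, and CDH5 and CD68 on 2.

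Many members were at the limit of detection, and more were seen on the mimic arrays. Of the 203 probes, 72 and 69 were well above background on the mimic arrays, compared with 55 and 60 on the control arrays, so that the groups did not overlap. An exact permutation test, two-sided, gave p = 0.333, the smallest value that 2 arrays against 2 allow. Over all probes the counts were 20998 and 20472 with the mimic and 20386 and 21214 with the control, which did overlap. On all 4 arrays 50 members were detected, and 121 on none. To be tested, a probe had to be detected on both arrays of the mimic group, of the control group or of both, as 64 members were, of 20328 probes in all. Of these 64, 13 passed through the mimic group only and 1 (SNORD89) through the control group only. The values below are log2 processed signals relative to the array's 75th percentile, and changes are mimic minus control.

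**Figure D1:**
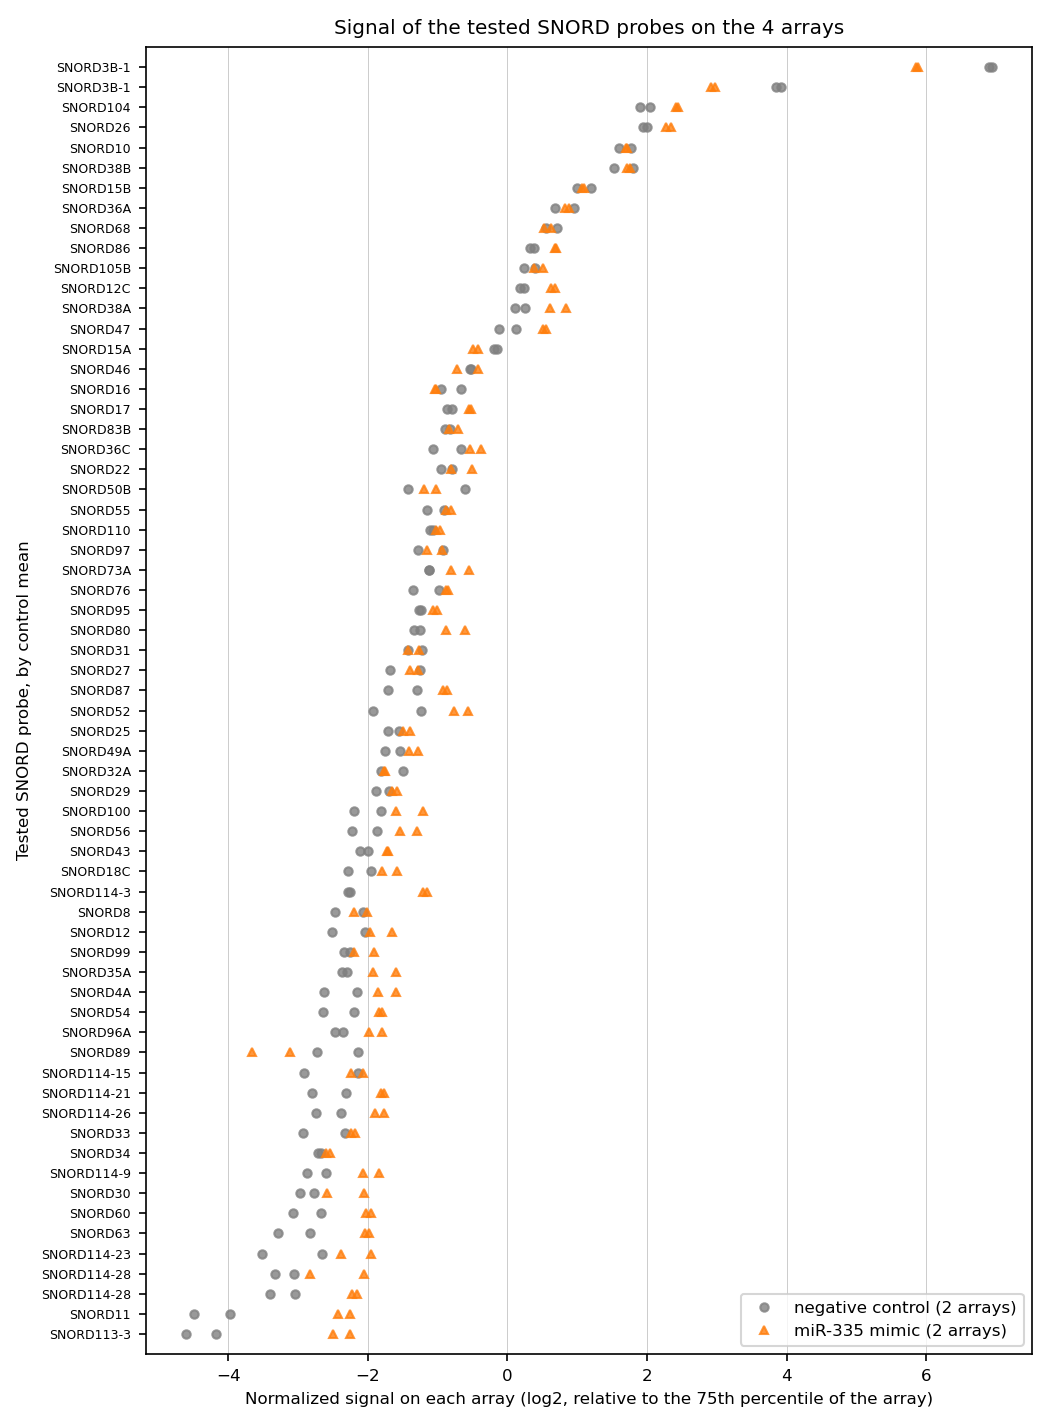
Normalized signal (log2, relative to the array's 75th percentile; horizontal axis) of the 64 tested SNORD probes, ordered by their control mean, on each of the 2 mimic arrays (triangles) and 2 control arrays (circles). The SNORD3B-1 probes stand at the top with the mimic below the control, whereas for most dim probes the triangles lie to the right of the circles.

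U3, the snoRNA required for the early cleavages of the ribosomal RNA precursor, was about 2-fold lower after the mimic. At the brighter SNORD3B-1 probe the processed signals were 11018 and 10744 intensity units on the mimic arrays and 21920 and 21689 on the control arrays. The probe 130 bases downstream gave 1437 and 1441 with the mimic and 2706 and 2626 with the control. The groups were thus widely separated at both probes relative to the spread within them. The log2 changes were -1.05 (SE 0.04, limma adjusted p = 0.0314) and -0.94 (SE 0.05, adjusted p = 0.0314), n = 2 arrays per group. Both probes carry accessions that RefSeq names SNORD3A, SNORD3B-1, SNORD3B-2 and SNORD3C, so the copies cannot be told apart. These were the only members called lower at the main setting, 2 of 64 tested, against 1.15% of all tested probes; spike-in scaling added SNORD15A. With 1 array left out in turn the changes were -1.07 to -1.03 and -0.97 to -0.90. The adjusted p was 0.0438 to 0.1 at the brighter probe, called only without control replicate 2, and 0.0627 to 0.112 at the other, which was called in none of these. No member was called with either mimic array left out, but nearly all calls over the whole array were lost there as well.

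SNORD22 (U22), which also serves cleavage of the precursor and lies in SNHG1, showed 132.9 and 104.1 units with the mimic and 92.4 and 104.9 with the control. These overlapped, and the log2 change was 0.21 (SE 0.13, adjusted p = 0.393). SNORD8 had a pair of probes on chromosome 14. The first gave 41.5 and 45.2 units with the mimic and 32.2 and 43.2 with the control (log2 change 0.17, SE 0.17, adjusted p = 0.572), and the second was not detected on any array.

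Outside the imprinted clusters, 2 members were called higher, of 4 in all, against 1.47% of all tested probes. SNORD12C, a methylation guide from an intron of ZFAS1, gave 292.4 units on both mimic arrays and 211.4 and 205.6 on the control arrays. Its log2 change was 0.44 (SE 0.05, adjusted p = 0.0475). No probe of its host was on the array by that name. SNORD12, from the same host, changed by 0.47 (SE 0.21, adjusted p = 0.271), and the groups did not overlap. SNORD11 lies in an intron of NOP58, which encodes a core protein of the box C/D particle. It gave 39.9 and 34.0 units with the mimic and 8.0 and 11.6 with the control, where neither array detected it. Against the lowest signals that counted as well above background it was at least 1.66-fold higher. The limma test took the full log2 change of 1.89 (adjusted p = 0.0492), which rests on the undetected control signals. SNORD11 passed the filter through the mimic group only. The host gene NOP58 itself changed by 0.01 (SE 0.04, adjusted p = 0.89). The groups of SNORD12C and SNORD11 were separated by more than the replicate spread, but with 1 array left out in turn SNORD12C was no longer called (adjusted p = 0.151 to 0.197) and SNORD11 was called only without control replicate 2 (adjusted p = 0.0435 to 0.199).

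**Figure D2:**
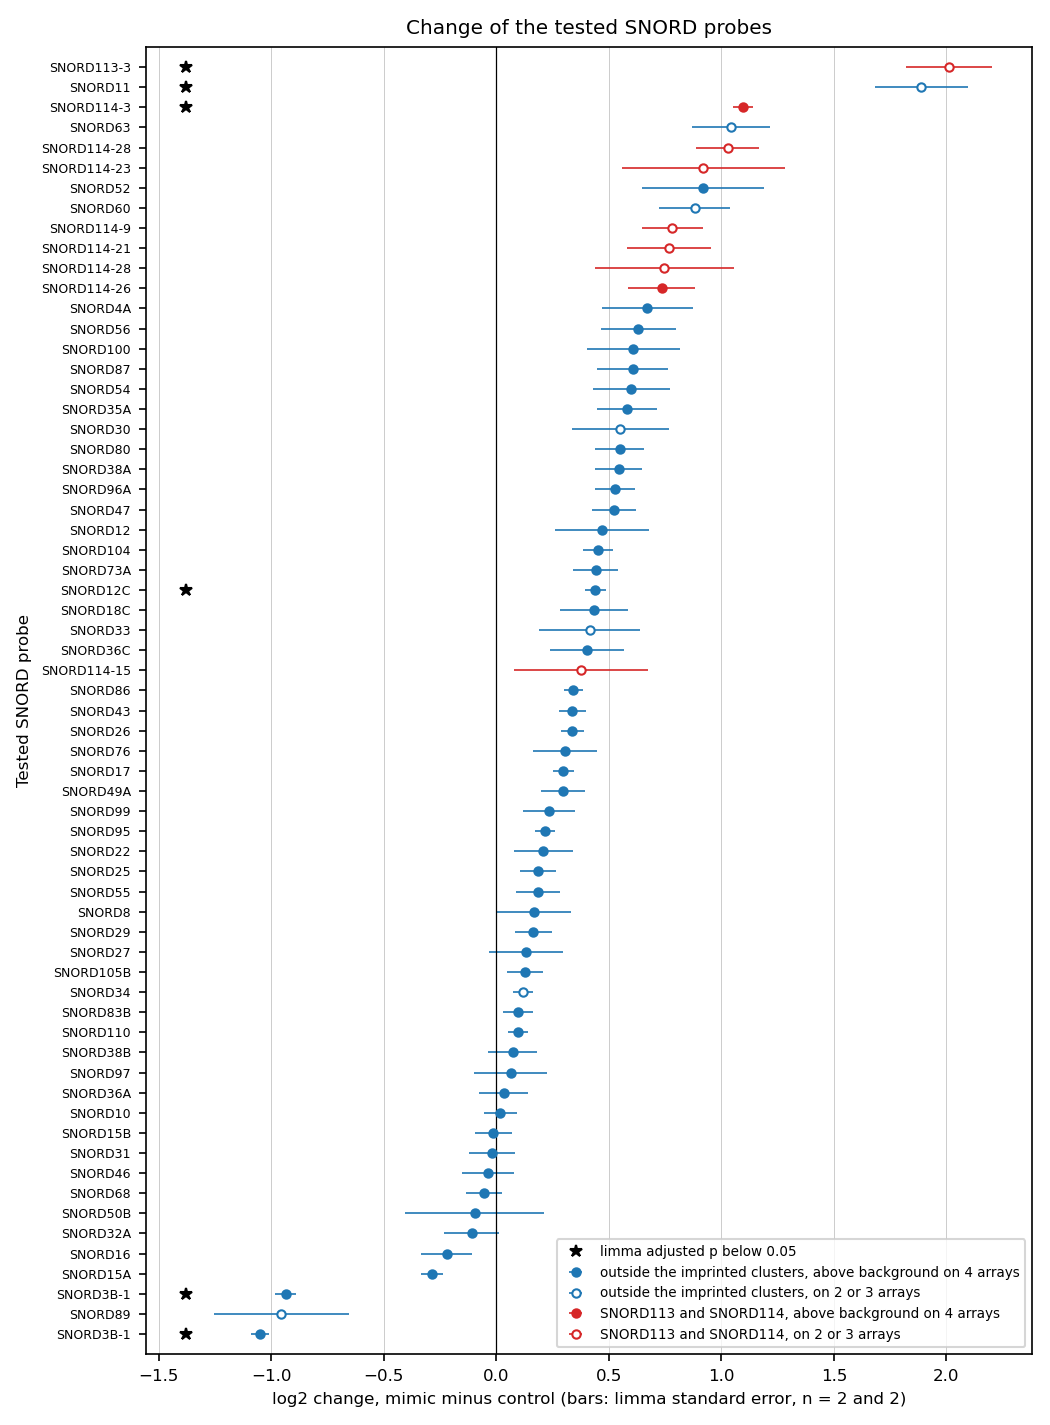
log2 change, mimic minus control (horizontal axis), of the 64 tested SNORD probes with limma standard errors (bars; n = 2 arrays per group); filled points were above background on all 4 arrays, open points on 2 or 3, and stars at the left mark the 6 called by limma. The SNORD113 and SNORD114 probes (red) all lie above 0, between 0.38 and 2.01, and both SNORD3B-1 probes lie near -1.

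Among the 50 members detected on all 4 arrays, the lowest changes after U3 were small. SNORD15A, from RPS3, had 141.8 and 129.7 units with the mimic and 156.2 and 163.6 with the control, a log2 change of -0.29 (SE 0.05, adjusted p = 0.0841; -0.47 and adjusted p = 0.022 with spike-in scaling). Its family member from the same host, SNORD15B, changed by -0.01 (SE 0.08), and RPS3 by -0.03 (SE 0.04). SNORD16 changed by -0.22 (adjusted p = 0.321), SNORD32A by -0.11 (adjusted p = 0.608) and SNORD50B by -0.10 (adjusted p = 0.864). The sign of SNORD50B turned to 0.31 without control replicate 1 and that of SNORD32A to 0.05 without control replicate 2.

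Of the highest changes outside the imprinted clusters among these 50, limma called none at the main setting and SNORD52 with the intensity trend (adjusted p = 0.0297). SNORD52 gave 128.7 and 107.1 units with the mimic and 46.9 and 77.0 with the control. The groups did not overlap, and the log2 change was 0.92 (SE 0.27, adjusted p = 0.162). SNORD4A (0.67, SE 0.20, adjusted p = 0.166), SNORD56 (0.63, SE 0.17, adjusted p = 0.14) and SNORD100 (0.61, SE 0.21, adjusted p = 0.194) followed, each with both mimic arrays above both control arrays. The control arrays of SNORD52 differed from each other by more than the mimic arrays did. Over the 64 members the median absolute difference between replicates was 0.24 for the control and 0.11 for the mimic arrays, compared with 0.06 in both groups over all tested probes.

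SNORD104, like SNORD60 and SNORD63 chosen after its values were seen, gave 1036 and 973.6 units with the mimic and 669.9 and 751.9 with the control, without overlap (log2 change 0.45, SE 0.07, adjusted p = 0.0705). SNORD33, SNORD34, SNORD60 and SNORD63 were detected on 3 arrays, with changes of 0.42, 0.12, 0.88 and 1.04 and adjusted p of 0.339, 0.227, 0.0898 and 0.083. Besides SNORD11, 2 members outside the imprinted clusters were detected on both arrays of a group and on neither of the other: SNORD30 with the mimic (at least 1.46-fold higher, adjusted p = 0.233) and SNORD89 with the control. SNORD89, from an intron of RNF149, gave 15 and 21.0 units with the mimic and 27.0 and 41.2 with the control. These did not overlap, and the mimic group was lower by at least 1.5-fold. The adjusted p of the full change was 0.174, which does not pass the test.

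Members from introns of 1 host were compared with that host. For 47 tested members, from 26 hosts, a host probe lay on the same strand within 100000 bases. The host genes changed by -0.14 to 0.21, with 0 called by limma in either direction (2 at an unadjusted p below 0.05, and 5 called with the intensity trend), and 7 of the 26 lay above 0. Over all 20328 tested probes, 5148 had an unadjusted limma p below 0.05 and 3083 were called with the trend. The median was -0.03 for the hosts and 0.23 for the members, and the member's change lay above that of its host in 37 of 47. Among these 37, SNORD11, SNORD30, SNORD33, SNORD34 and SNORD63 passed through the mimic group only, which goes far to set their direction. These differences between a member and its host were not tested one by one, and members of 1 host share it. Members and hosts were not matched for brightness, and the median change was larger among dim members than among brighter ones, as given below.

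SNHG1, a noncoding host whose product is largely its intronic snoRNAs, had 7 tested members. SNORD26 gave 916.1 and 928.6 units with the mimic and 717.0 and 695.7 with the control, for a log2 change of 0.34 (SE 0.05, adjusted p = 0.0729). Its groups did not overlap. The other members lay between -0.02 (SNORD31) and 0.55 (SNORD30), with a median over the 7 of 0.18, and SNHG1 itself changed by 0.21 (SE 0.05, adjusted p = 0.133).

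GAS5, another noncoding host, changed by -0.07 (SE 0.04, adjusted p = 0.363). Its 3 tested members changed by 0.31 (SNORD76), 0.52 (SNORD47) and 0.55 (SNORD80). SNORD47 gave 268.8 and 267.9 units with the mimic and 165.1 and 198.2 with the control, without overlap (SE 0.10, adjusted p = 0.0944).

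Ribosomal protein hosts gave a mixed picture within single genes. In RPL13A (-0.09, SE 0.06) the 4 members ranged from -0.11 for SNORD32A to 0.58 for SNORD35A (SE 0.13, adjusted p = 0.121). In RPL7A (-0.05) SNORD36A changed by 0.03 and SNORD36C by 0.40, and in RPL4 (-0.14) SNORD16 by -0.22 and SNORD18C by 0.43. None of these passed the test.

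NOP56, which encodes a core protein of the particle, changed by 0.03 (SE 0.04, adjusted p = 0.662). Its intronic SNORD86 gave 307.1 and 294.3 units with the mimic and 232.3 and 226.9 with the control, without overlap, for a log2 change of 0.34 (SE 0.04, adjusted p = 0.0577). This probe also carries a NOP56 accession. SNORD56 and SNORD110, from the same host, changed by 0.63 and 0.10.

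**Figure D3:**
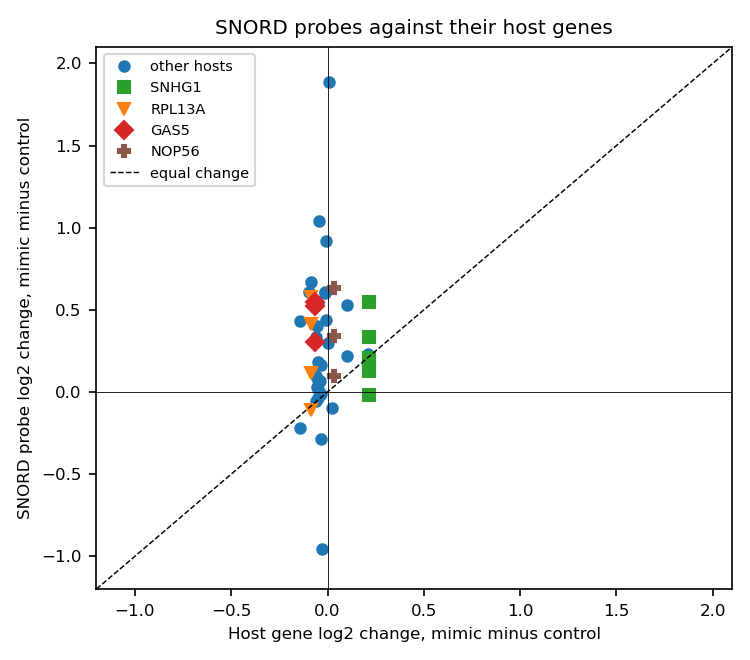
log2 change of 47 SNORD probes (vertical axis) against that of the host gene in whose introns they lie (horizontal axis; the brightest tested probe of the host), with members of 4 hosts marked by symbol. Host changes stay between -0.14 and 0.21, while members spread from -0.96 to 1.89, and 37 of 47 lie above the dashed line of equal change. The ends of the member spread, SNORD89 and SNORD11, were undetected on both arrays of a group. Some members above the line passed through the mimic group only, and members and hosts were not matched for brightness.

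In the imprinted cluster on chromosome 14, every SNORD113 and SNORD114 probe that could be tested was higher in mean after the mimic. Of the 9 tested, 2 were called higher (SNORD114-3 and SNORD113-3), against 1.47% of all tested probes. The array held 8 SNORD113 and 30 SNORD114 probes (37 gene names) over 68.5 kb of the plus strand (hg19 chr14:101391168-101459646). Of these 38, 12 and 10 were well above background on the mimic arrays and 3 and 5 on the control arrays; 25 were detected on no array. Only SNORD114-3 and SNORD114-26 were detected on all 4. The other 7 of the 9 tested passed through the mimic group only, which goes far to set their direction, so the count over the 9 says little about it.

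SNORD114-3 gave 82.3 and 82.7 units with the mimic and 36.6 and 38.2 with the control. The arrays within each group nearly coincided, and the log2 change was 1.10 (SE 0.04, adjusted p = 0.0314). SNORD113-3 gave 33.4 and 38.4 units with the mimic and 7.3 and 10.1 with the control, where neither array detected it, and was at least 1.62-fold higher. Its limma test took the full log2 change of 2.01 (adjusted p = 0.0416), which rests on the undetected control signals. With 1 array left out in turn the adjusted p was 0.0514 to 0.1 for SNORD114-3 and 0.0646 to 0.185 for SNORD113-3, so that neither stayed called.

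SNORD114-26 gave 55.9 and 49.0 units with the mimic and 34.2 and 27.1 with the control, without overlap, for a log2 change of 0.73 (SE 0.15, adjusted p = 0.104). Both probes of SNORD114-28 were seen with the mimic only, at least 1.75-fold and 1.47-fold higher (adjusted p of the full changes 0.0659 and 0.248). Their sequences start 1 base apart, so they are no independent measurements, and the second also carries an accession of SNORD114-25. The 4 remaining tested copies, detected on 3 arrays each, changed by 0.78 (SNORD114-9, adjusted p = 0.0846), 0.77 (SNORD114-21, adjusted p = 0.129), 0.92 (SNORD114-23, adjusted p = 0.233) and 0.38 (SNORD114-15, adjusted p = 0.483). The control arrays of SNORD114-15 stood at 23.7 and 41.3 units, on either side of the limit, and its change without control replicate 1 was -0.01. SNORD114-11, SNORD114-13, SNORD114-14 and SNORD114-20 were detected on 1 mimic array each and were not tested.

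Counting all 38 probes whatever their signal, 37 had a higher mean with the mimic, with a median difference of 0.48, compared with 31214 of 50526 probes and a median of 0.04 over the whole array without a filter. Most of these values lay below the detection limit and are descriptions only. The tested SNORD114 probes resembled one another, with a pairwise identity of 63.3% to 96.7% (median 79.2%), and whether a probe also caught other copies was not tested.

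**Figure D4:**
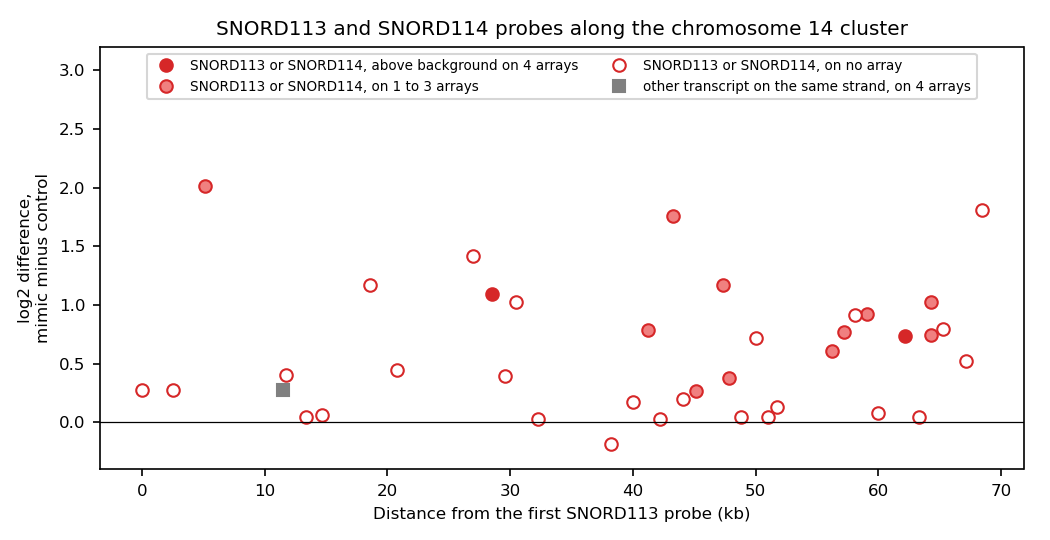
log2 difference, mimic minus control (vertical axis), of the 38 SNORD113 and SNORD114 probes by distance from the first of them (horizontal axis, kb); fill shows whether a probe was above background on 4, on 1 to 3 or on no array, and the square is another transcript on the same strand. Of the 38 points 37 lie above 0, and open points rest on signals below the detection limit.

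Imprinted transcripts around the cluster had changes of either sign. MEG3, the maternally expressed noncoding RNA upstream of the cluster, was higher at its brightest probe, by 0.65 (SE 0.04, adjusted p = 0.0351). Its 3 other probes changed by 0.10, -0.03 and -0.13 (adjusted p = 0.596, 0.688 and 0.269). MEG8, a noncoding transcript between MEG3 and the snoRNAs, changed by 0.37 (SE 0.23, adjusted p = 0.386). A transcript named XLOC_010933, which lies between SNORD113-3 and SNORD113-4, changed by 0.27 (SE 0.05, adjusted p = 0.0873). The paternally expressed DLK1 changed by -0.36 (SE 0.09, adjusted p = 0.14) and DIO3 by 0.37 (SE 0.04, adjusted p = 0.0492), while RTL1 was not detected. In all, limma called 2 of 4 tested transcripts of the 14q32 list higher, MEG3 and DIO3, and none lower; DLK1 was called lower as well with the intensity trend (adjusted p = 0.019), spike-in scaling (adjusted p = 0.0248) and normexp (adjusted p = 0.0457). With 1 array left out in turn neither MEG3 (adjusted p = 0.102 to 0.158) nor DIO3 (adjusted p = 0.158 to 0.202) stayed called.

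In the chromosome 15 clusters no SNORD115 or SNORD116 probe was detected in either group. None of the 13 SNORD115 and 11 SNORD116 probes (hg19 chr15:25304722-25515005, plus strand) was well above background on any array. Their processed signals ran from 4.0 to 11.2 units with a median of 5.6, below the lowest signal that counted as detected, which was 19.9 to 23.9 by array. The other snoRNAs of the region, SNORD64, SNORD107, SNORD108 and SNORD109B, were not detected either. SNRPN, SNURF, NDN, MKRN3 and the PAR transcripts stood at background as well, and of 30 probes for the 15q11 list 25 were detected on no array. IPW, a noncoding transcript between the clusters, had 1 of its 11 probes detected on 2 arrays and 1 on 1 array. UBE3A (-0.07, adjusted p = 0.323), ATP10A (-0.01, adjusted p = 0.946) and MAGEL2 (0.28, adjusted p = 0.356) were detected on all 4 arrays and not called. A difference in SNORD115 or SNORD116 between the groups was therefore not detectable with these probes.

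Taking the 50 members detected on all 4 arrays as a group, 40 had a higher mean with the mimic and 10 a lower one. Their median log2 change was 0.27, and that of all 19352 probes detected on all 4 arrays was -0.02. Both mimic arrays lay above both control arrays for 31 of the 50, against 26.6% of all such probes, and below them for 4, against 32.8%. Changes above 1.5-fold upward were found for 8 of the 50, compared with 1.43% of all such probes, and downward for 2, compared with 0.904%. Over the 64 tested the counts were 17 higher and 3 lower, next to 2.43% and 1.47% of all tested probes, but 9 of the 17 had passed through the mimic group only. With the normexp background correction, whose offset pulls dim signals together, 0 members were over 1.5-fold higher, and 13 were called higher.

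**Figure D5:**
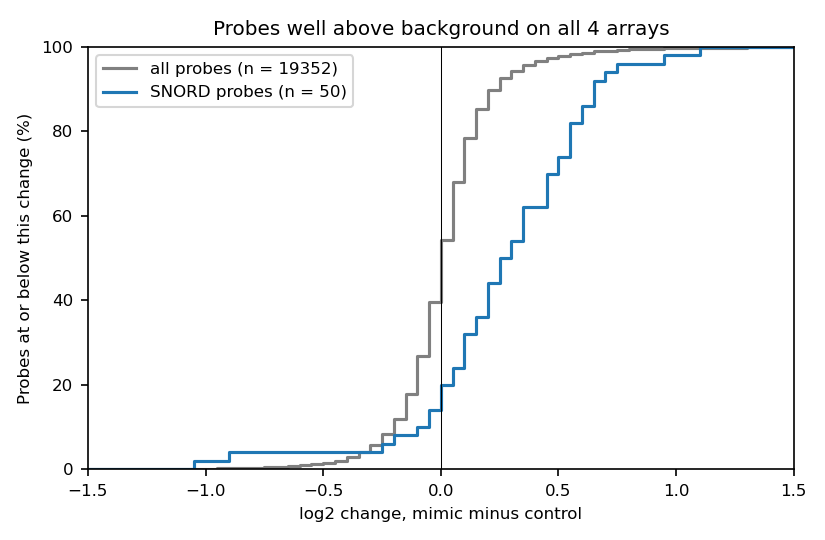
Share of probes (vertical axis, %) at or below a given log2 change, mimic minus control (horizontal axis), for the 50 SNORD probes and the 19352 probes that were above background on all 4 arrays. The SNORD curve is displaced to the right (median 0.27 compared with -0.02), apart from its lowest step, the U3 probes.

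The median change was larger among dim members. Of the 50, 27 had a mean value below -1, and of these 24 were higher, with a median of 0.34 and 8 over 1.5-fold higher, whereas over the 3969 such probes in all the median was 0.003. The other 23, with a mean of at least -1, had a median of 0.13, with 16 higher and 0 over 1.5-fold higher, and over the 15383 such probes in all the median was -0.02. Scaling to the external spike-in RNAs lowered the median of all tested probes to -0.20 and that of the members to 0.16, and 42 of the 64 members then lay above 0. For the 50 members detected on all 4 arrays the median was then 0.08, with 30 above 0, next to -0.20 for all such probes. Other small RNAs of the nucleolus and Cajal body had medians nearer to 0 than the 64 tested SNORD probes (0.34), but close to that of the brighter SNORD members (0.13). The 68 tested SNORA probes (box H/ACA snoRNAs, which guide pseudouridylation) had a median of 0.12 with 5 called higher and 3 lower, and the 13 SCARNA probes (Cajal body RNAs) had a median of 0.12 with 1 called in each direction. Over all tested probes 1.47% were called higher and 1.15% lower. The sets were not matched for brightness, and whether these medians differ from that of the SNORD probes was not tested.

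The proteins of the box C/D particle did not pass the test. FBL, the methyltransferase, changed by 0.15 (SE 0.04, adjusted p = 0.131), RRP9, which binds U3 specifically, by 0.13 (SE 0.04, adjusted p = 0.154), and NHP2L1, which binds the box C/D fold first, by -0.06 (SE 0.04, adjusted p = 0.379). With NOP56 and NOP58 given above, 0 of 5 tested core proteins were called by limma (2 at an unadjusted p below 0.05, and 2 called with the intensity trend), and 1 listed name was not on the array. Under spike-in scaling FBL, NOP56, NOP58 and RRP9 turned to -0.04, -0.15, -0.17 and -0.05. Of the 9 assembly factors tested (among them NUFIP1, ZNHIT6, PIH1D1, RUVBL1 and the Cajal body protein NOLC1), 0 were called (4 at an unadjusted p below 0.05, and 2 called with the trend), 8 lay above 0, and their changes ranged from -0.04 to 0.20 with adjusted p of 0.124 to 0.809. Over all 20328 tested probes, 5148 had an unadjusted limma p below 0.05 and 3083 were called with the trend.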

How the data were processed

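RNA of 4 GIST-T1 samples was measured on 1-color Agilent arrays. Per the file headers, the deposited intensity values came from Feature Extraction 10.7.3.1, as background-subtracted processed signals not normalized between arrays. Flags for outlier spots, saturation and signals well above background came from the same files, and the series value table that the authors deposited, also intensity, served as an alternative. Outlier spots were left out (1 member spot), replicate spots were averaged, and log2 processed signal minus the 75th percentile of each array was the value. A probe was well above background when at least 0.5 of its usable spots were flagged so. The comparison used lmFit and eBayes of limma 3.58.1 (R 4.3.3) without covariates, with Benjamini-Hochberg adjustment over all 20328 tested probes and a threshold of 0.05; the step was tested on simulated data. The number of arrays limits the precision. A second limit, 1.5-fold, carried no test, and the methods' t-test was run as an alternative.

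The members and gene lists were chosen with earlier results of these data known, and host pairs were written from general knowledge. Named members were those called, the 6 lowest and 6 highest changes among members detected on all 4 arrays, detected members of SNORD113 to SNORD116, members detected in 1 group only, and members sharing a host or family number; SNORD8, SNORD60, SNORD63 and SNORD104 were added after their values were seen. Where a group had no array above background, a bound was computed: the brighter group's mean against, per array, the lowest signal that counted as well above background or, where higher, that of the probe itself. An adjusted p given with such a bound is that of the full log2 change, and the bound was not tested. RefSeq names were matched for 197 of 203 member probes through their accessions. Whether same-numbered arrays were paired is not stated in the labels. Their deviations correlated at 0.035, which cannot exclude pairing. Other settings tried concerned normalization, background, filters, outlier spots, the variance model and leaving out each array. Figures were drawn with matplotlib. Results for some listed genes are not reported here.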

Additional observations from a re-analysis of the deposited data

Results flagged for a closer look

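The external spike-in RNAs, which are not part of the comparisons, were higher on the mimic arrays after normalization, with a median log2 change of 0.183 (0.117 to 0.234; 7 of their 10 probes used). This signal lies outside the main measurement. Scaled to it, all tested probes shifted to a median of -0.20 and the tested SNORD probes to 0.157. The SNORD probes detected on all 4 arrays shifted to 0.084. Its part in the changes of the SNORD probes was not tested.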

How the results depend on the processing

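The median change of all tested SNORD probes stayed above 0 under every normalization, filter and left-out array that was run. At the main setting, however, 13 of the 64 passed through the mimic group only, which goes far to set their direction. For the 50 members detected on all 4 arrays the median was 0.266 at the main setting and 0.084 with spike-in scaling. For SNORD113 to SNORD116 most tested probes passed through the mimic group only, so the sign of their median is no sign of stability. The calls did not hold throughout. The main counts were 2 called lower and 4 higher. With the filter lowered to at least 1 array, with no filter, with the replicate block and with the methods' t-test after adjustment, 0 were called lower and 0 higher. In each of these settings 0 probes were called over the whole array as well. At an unadjusted p below 0.05 were 31 of 82, 45 of 202, 34 of 64 and 17 of 64 members. Over all probes tested there, 4696 of 22850, 3627 of 50526, 4400 of 20328 and 4115 of 20328 were. The unadjusted t-test put 14 members higher, and passed 4 of 26 hosts, 3 of 5 core proteins and 4 of 9 assembly factors. Fewer residual degrees of freedom (the replicate block) and more probes tested (the wider filters) are part of how these settings are built; otherwise the cause was not tested. The labels give same-numbered arrays only a shared number, and the correlation of their deviations (0.035) cannot show whether they were paired. With 1 array left out, the lone array was taken to spread as the other group does. No member was called with either mimic array left out, where nearly all calls over the whole array were lost as well. Called without control replicate 1 was only SNORD119, and without control replicate 2 SNORD3B-1, SNORD7, SNORD11, SNORD114-28 and SNORD63. Called higher were 9 with spike-in scaling, 13 with normexp and 17 with the intensity trend. Over the whole array, calls in both directions together went from 532 to 9174, 1423 and 3083. Of the 9174 with spike-in scaling, 8668 were lower and 506 higher, next to 299 higher at the main setting. Over 1.5-fold lower were 5 with the filter at 1 array, 10 with none, 3 to 5 with 1 array left out and 1 at a 2-fold limit, and over 1.5-fold higher were 10 with spike-in scaling, 0 with normexp, 8 with the filter on all arrays, 27 at 1 array, 49 with none, 15 to 26 with 1 array left out, 5 at 2-fold and 6 when all 4 pairings had to pass. Over the whole array with no filter, 2759 of 50526 probes were over 1.5-fold lower and 3299 higher, next to 10 and 49 of 202 members. The members' share of lower probes there was thus near that of all probes. With spike-in scaling, 749 of 20328 probes were over 1.5-fold lower and 277 higher, next to 3 and 10 of 64 members. The median of all tested members (0.339) became 0.157 with spike-in scaling, 0.165 with normexp, 0.193 with no filter and 0.266 to 0.382 with 1 array left out. For SNORD113 to SNORD116 (0.782) it became 0.600, 0.261, 0.914 (all arrays), 0.186 (no filter) and 0.850 to 0.922, and for the rest (0.297) 0.115, 0.139, 0.225, 0.197 and 0.220 to 0.325. With 1 array left out the sign turned for SNORD32A (-0.265 to 0.046), SNORD50B (-0.499 to 0.305) and SNORD114-15 (-0.012 to 0.766), and with spike-in scaling for FBL (-0.035), NOP56 (-0.150), NOP58 (-0.173) and RRP9 (-0.048). A slide or scan block was not run, since there was 1 of each, and a block cannot move a median. Most SNORD113 and SNORD114 signals lay near background, which limits what can be said of them.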

Other observations

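A few members gave a signal on a single array. SNORD119 was at 239.0 units on control replicate 2 and at 6.0, 6.7 and 6.2 on the other arrays. SNORD5 was at 117.6 on mimic replicate 1 and at 14.6 to 17.5 on the rest, and SNORD66 at 72.8 on the same array and at 12.8 to 19.5 on the rest. SNORD7 was at 37.8 on control replicate 1 and at 4.9 to 5.8 elsewhere. The spot of SNORD71 on mimic replicate 2, at 7350 units against 10.4 to 26.0 on the other arrays, was the only member spot with an outlier flag and was left out. Each of these rests on 1 spot, and none entered the main test, since none was detected on both arrays of a group.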
